A study of Mus musculus with 12 samples.

Results

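Kinesins are the motor proteins that walk along microtubules, and their genes were followed here from the end of male meiosis into the round spermatid. Members were the rows of the count table whose symbol is Kif followed by a number and at most 1 letter a to c, or Kifc followed by a number, without pseudogene symbols. There were 42 such genes among 55291 rows. By known role they were divided into 14 genes of the spindle and chromosomes, 10 of cilia and the sperm flagellum, 17 of cargo transport, and Kif28, which was placed in no role.

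Sorted mouse testis cells of 2 stages were sequenced with Smart-seq2, which copies polyadenylated RNA with an oligo(dT) primer and amplifies the cDNA. The stages were spermatocytes at MII, the second meiotic division, and round spermatids (RS), haploid cells that come after it. The control groups were labelled wildtype (WT), with no allele or Cre named. In the knockout (KO) groups, labelled Pan2flox/-;Stra8-Cre, 1 Pan2 allele was deleted and the other floxed, and Cre came from the Stra8 promoter, which switches on in premeiotic germ cells. There were 4 groups with 3 libraries in each, whose total counts lay between 13781370 and 38652066. The labels give no age of the animals, call the tissue sperm, and do not tell whether replicates were different animals. The p-values therefore measure a spread between libraries that may be technical.

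PAN2 cuts poly(A) tails as the catalytic part of a deadenylase. Its transcript was at 12.9, 17.1 and 13.3 CPM (counts on 1 common library size, by TMM factors) for WT and at 5.57, 7.10 and 5.07 CPM for KO in MII. Round spermatids had 9.93, 8.13 and 12.9 CPM in WT, and 4.73 and 3.52 CPM in replicates 2 and 3 of KO. At 22.6 CPM the library labelled KO RS replicate 1 stood above all others and so went against its label in this transcript. Over all genes tested, its log2 CPM correlated at 0.978 and 0.975 with KO RS replicates 2 and 3. With the WT RS libraries the correlation was 0.945 to 0.957. The cause of its Pan2 level was not tested. The counts of calls and the calls named below that rest on this library are also given without it. Summed CPM of 22 Sertoli cell markers, with Amh at 0 in all libraries, in MII was 28.4 to 50.4 for WT and 113 to 486 for KO. In RS it was 10.3 to 11.3 for WT and 53.3 to 344 for KO. The 344 CPM was that of the library labelled KO RS replicate 1, while KO RS replicates 2 and 3 were at 53.3 and 84.1 CPM. For 15 Leydig cell markers it was 185 to 214, 306 to 473, 107 to 126 and 122 to 140 in the same order. The 15 round spermatid markers summed to 5120 to 6126 CPM for WT and 6810 to 7533 CPM for KO in MII, and to 5850 to 7536 and 8412 to 9553 CPM in RS, so their transcripts were abundant in the MII fraction as well, and every KO library lay above every WT library of its stage. The 18 markers of elongating spermatids summed to 11280 to 15723 CPM for WT and 9248 to 10571 CPM for KO in RS, with overlap between genotypes in MII, at 9686 to 12457 and 8311 to 10745 CPM. Among them Prm1, a protamine that packs sperm DNA, was at 1118 to 1670 CPM for WT and 252 to 567 CPM for KO in MII, and at 1383 to 2097 and 214 to 302 CPM in RS. The list as a whole did not follow Prm1: 5 of the 18 were called lower and 0 higher in KO in each stage. In RS 10 of the 18 were above 0 (median log2 fold change 0.05), and in MII 7 were (median -0.12). The 15 spermatogonial markers summed to 694 to 912 and 570 to 783 CPM in MII and to 1028 to 1225 and 740 to 809 CPM in RS, again for WT and KO. Most single genes of that list went the other way, since 11 of the 14 tested were above 0 for KO against WT in each stage. Their median log2 fold changes were 0.52 in MII, with 1 called higher and 0 lower, and 0.28 in RS, with 3 higher and 2 lower. The 18 markers of meiotic prophase overlapped between genotypes, with 2000 to 2424 and 1881 to 2195 CPM in MII and 1824 to 2088 and 1780 to 1861 CPM in RS. Sums of Sertoli markers, of Leydig markers in MII and of some germ cell lists thus moved with genotype beside the kinesins. Their part in the kinesin results was not tested. Fits with the Sertoli and Leydig scores as covariates are given below. Sertoli sums did not overlap between the genotypes of a stage, and Leydig sums did not overlap between stages. Those fits therefore cannot separate the scores from the groups, and a call lost or kept in them does not tell what part these markers had. In such bulk libraries fewer cells of a type and less RNA per cell cannot be told apart.

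Dividing germ cells use kinesins to build the spindle, to move and align chromosomes and to organise the central spindle on which the cell is cut. Male germ cells do not complete that cut and stay joined by intercellular bridges. The spermatid then reuses microtubule motors to assemble the flagellum, to carry material along the manchette, a skirt of microtubules around the elongating nucleus, and to shape the acrosome and head.

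The promoter stretches of 5 members that carry the findings are shown, because motifs of cell cycle and spermatid genes can be compared in them: Kif17 and Kif5c for the CRE, Kif22 and Kif20b for elements of genes that peak at cell division, and Kif2b as the member with the highest level. Each is the 150 bases before the RefSeq start on GRCm38.p6 (the mm10 assembly), read 5′ to 3′ on the gene's strand.
Kif17, chr4:138262101-138262250, plus strand: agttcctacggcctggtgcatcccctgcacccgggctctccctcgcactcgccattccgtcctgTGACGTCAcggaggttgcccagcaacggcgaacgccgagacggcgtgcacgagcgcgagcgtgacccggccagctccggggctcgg
Kif5c, chr2:49619136-49619285, plus strand: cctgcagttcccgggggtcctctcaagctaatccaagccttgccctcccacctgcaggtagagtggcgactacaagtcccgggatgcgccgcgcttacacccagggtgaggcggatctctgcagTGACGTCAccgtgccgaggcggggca
Kif22, chr7:127042421-127042570, minus strand: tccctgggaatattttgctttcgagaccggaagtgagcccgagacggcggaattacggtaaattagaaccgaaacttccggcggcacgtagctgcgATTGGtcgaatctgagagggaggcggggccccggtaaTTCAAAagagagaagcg
Kif20b, chr19:34922208-34922357, plus strand: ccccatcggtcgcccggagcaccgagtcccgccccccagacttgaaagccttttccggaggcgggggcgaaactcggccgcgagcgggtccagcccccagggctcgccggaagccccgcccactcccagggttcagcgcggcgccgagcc
Kif2b, chr11:91577556-91577705, minus strand: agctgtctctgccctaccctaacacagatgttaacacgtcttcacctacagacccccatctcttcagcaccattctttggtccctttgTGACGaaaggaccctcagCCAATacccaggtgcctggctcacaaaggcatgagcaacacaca
Capitals mark the full CRE, TGACGTCA, in Kif17 (first base at -86 from the start) and in Kif5c (-26). In Kif22 they mark a CCAAT box on the other strand, at -54, and the motif TTTGAA, known as the CHR of cell cycle genes, on the other strand at -17. In Kif2b they mark the CRE half-site TGACG at -62 and CCAAT at -44, and the Kif20b stretch held none of these motifs, although its window held TTTGAA at 8 and 14 bases after the start. The windows searched ran on both strands from 250 bases before to 50 after the start, and 33 of the 42 members had an entry. Some genes have more than 1 RefSeq promoter, and a gene was counted if any of them held the motif. The full CRE was in 3 of the 33 members, the other being Kif18a, and in 2.03% of 27025 genes. TTTGAA was in 14 of the 33 and in 20.2% of all genes, CCAAT in 16 and 41.1%, and the half-site TGACG, which every full CRE contains, in 16 and 23.0%. AACNGTT, a motif of MYB factors, was in 1 of the 33 (Kif14) and 5.01%, and the X-box of RFX factors in 0 of the 33 and 0.152%. These are matches of letters and say nothing of binding. The X-box was searched only in a strict form, with nearly all its letters fixed. Looser forms of the X-box were not searched, so they may be present in members, Kif17 included. The RefSeq start of Kif17 lies inside the span that the count table gives the gene, from 138250435 to 138301967 on chromosome 4.

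Few kinesin genes held most of the kinesin reads. Kif2b, a kinesin that removes tubulin from microtubule ends and is known from human cells to correct chromosome attachments, had the highest level in all 12 libraries per length as well as in CPM. It is a gene of 1 exon on chromosome 11 (91575315 to 91577558, minus strand). In MII its level was 653, 502 and 493 CPM in WT and 864, 779 and 691 in KO, and in RS it was 672, 877 and 548 CPM in WT and 972, 949 and 868 in KO. The KO libraries lay above the WT libraries of MII without overlap, while in RS the WT library with 877 CPM reached into the KO range. Neither difference passed the test (log2 fold change 0.50, edgeR adjusted p = 0.0808 in MII, and 0.41, adjusted p = 0.0904 in RS). Without that library, WT RS replicate 2, both did (0.50, adjusted p = 0.0439 in MII, and 0.61, adjusted p = 0.0135 in RS). On leaving out the library labelled KO RS replicate 1 neither passed (0.50, adjusted p = 0.0996, and 0.38, adjusted p = 0.240). Kif2b took 22.5% ± 2.53 of all kinesin CPM (mean ± SD, n = 3 libraries) in MII of WT and 27.9% ± 3.01 in MII of KO, and 26.0% ± 5.41 against 32.5% ± 2.07 in RS.

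Over all libraries, members placed in the cilium and flagellum group filled the 6 ranks per length after Kif2b. This run depends on placing Kif2a in that group, while Kif2b and Kif2c were placed in the spindle group. Per kilobase of exon, Kif9, a motor of the sperm flagellum needed for motility in mice, had a WT mean of 102 CPM in MII and 117 CPM in RS, against 245 and 312 CPM per kilobase for Kif2b. Kif2a, a depolymerising kinesin of centrioles and cilia, had 47.3 and 41.3 CPM per kilobase. Kif3a and Kif3b, which pair into the kinesin-2 motor that drives intraflagellar transport, had 29.6 and 35.4 CPM per kilobase in WT MII and 34.4 and 31.0 in WT RS. Their ranges did not overlap in WT MII (27.5 to 31.8 against 32.9 to 38.8) and in WT RS they did not overlap either, in the opposite order (34.3 to 34.5 against 26.1 to 33.5). Kif27, a motile cilium kinesin, and Kif17, a kinesin-2 that carries the coactivator ACT in mouse spermatids, followed with 24.0 and 19.1 CPM per kilobase in WT MII, where Kif17 was below Kif27, and 30.3 and 30.6 in WT RS, where their ranges of 27.2 to 33.6 and 24.5 to 34.0 overlapped. Kif2c, a depolymerising kinesin of centromeres, was the next spindle member after Kif2b, at 24.6 and 24.2 CPM per kilobase, and in WT MII its mean stood above those of Kif27 and Kif17.

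Of the 42 members, 7 had a mean of at least 100 CPM over all libraries, 25 lay between 1 and 100 CPM and 10 were under 1 CPM. Kif12 and Kif26a had a count of 0 in every library, Kif28 had 14 counts in all and Kif3c 52. These 4 did not pass the filter on low counts, and 38 members were tested. A floor of 3 counts in a library corresponded to between 0.0776 and 0.218 CPM, so the levels of Kif1c, Kif5a, Kif26b and Kif3c were near what these libraries can resolve. The conventional kinesin heavy chains, which haul cargo in most cells, were low here: over all libraries Kif5c had a mean of 0.82, Kif5b 0.54 and Kif5a 0.07 CPM per kilobase. The summed CPM of all kinesins in MII was 2436 ± 200 for WT and 2789 ± 61.3 for KO (mean ± SD, n = 3), and in RS 2674 ± 78.9 for WT and 2860 ± 23.7 for KO.

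**Figure D1:**
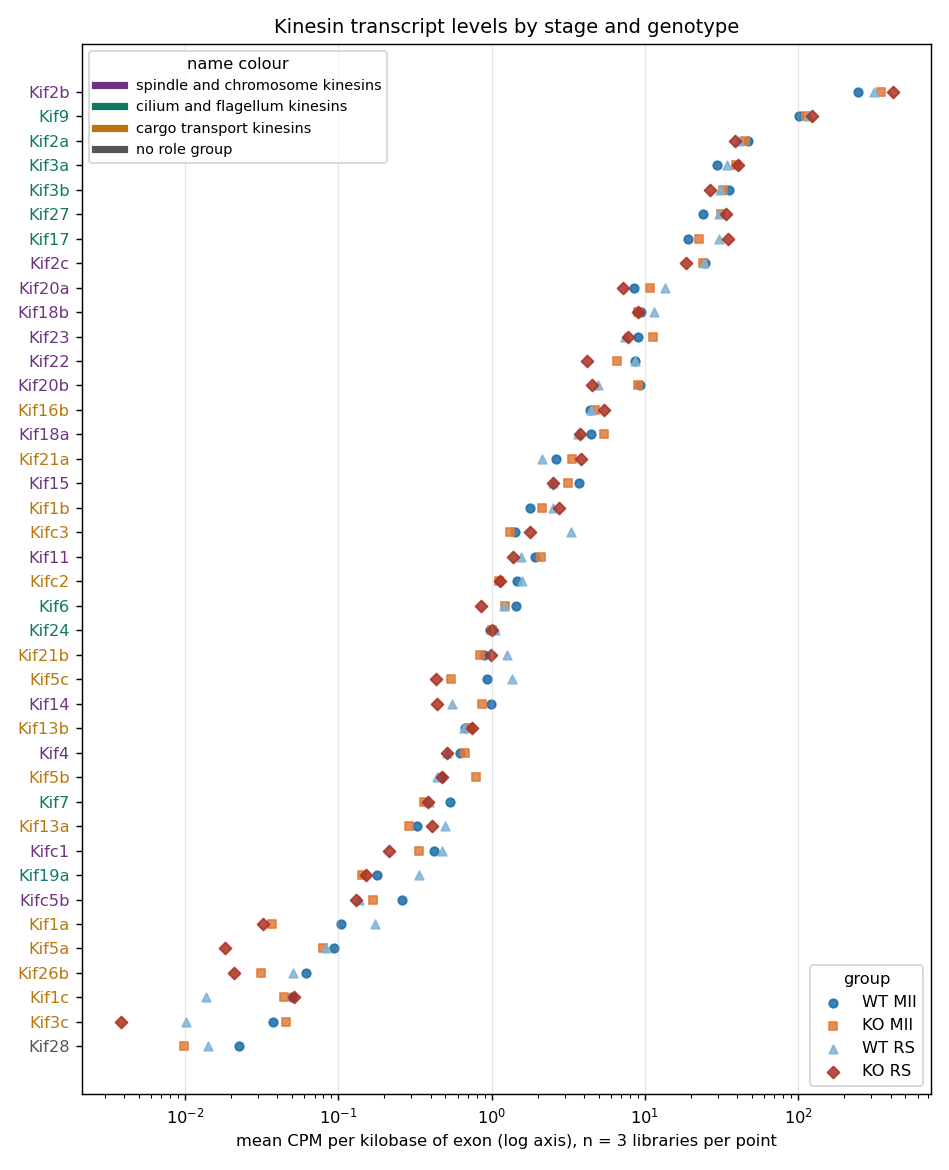
Mean CPM per kilobase of exon (log axis) of the kinesin genes in the 4 groups of 3 libraries, each point a group, the genes ordered by level and their names coloured by role; means of 0 are not drawn. Kif2b stands highest in every group, followed by Kif9, and the highest cargo kinesin, Kif16b, reaches 5.41 CPM per kilobase.

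The step from MII to round spermatids asked which motors belong to division and which to the spermatid. In WT, 3 kinesins rose and 3 fell, and the fallers were all of the spindle group. The 3 that rose are 7.89% of the 38 tested members, against 7.74% of all genes tested that rose; the 3 that fell are likewise 7.89%, against 8.68% of all genes. In KO, 1 rose (2.63%, against 4.16% of all genes) and 4 fell (10.5%, against 8.17%), and the 4 were again spindle members. For the 38 members together these shares lie near the background of each comparison. Of the 14 spindle members alone, 3 fell in WT (21.4%, against 8.68% of all genes) and 4 in KO (28.6%, against 8.17%). The shares of a role group are descriptive and no test of an excess. Without the library labelled KO RS replicate 1, 1 member rose in KO (Kif17) and 1 fell (Kif20b), against 359 and 1321 of 21811 genes tested. The stages did not overlap for 13 members in WT (34.2%, against 30.5% of all genes) and for 19 of the 38 in KO (against 37.0%); the KO count was 23 (60.5%, against 45.9%) on leaving out the library labelled KO RS replicate 1. With the Sertoli and Leydig scores as covariates 0 of these 11 calls stayed, and that fit called 0 genes of all 21291 between stages in WT and 1 in KO.

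Among the spindle kinesins, the lowest adjusted p was that of Kif20b, a motor of late cytokinesis (chromosome 19, 34922361 to 34975745, plus strand). In WT it was at 70.8, 56.9 and 65.1 CPM in MII against 33.7, 34.7 and 35.2 CPM in RS, and in KO at 57.3, 74.0 and 57.6 CPM against 34.9, 31.2 and 28.5 CPM. Every RS library lay below every MII library, and the WT and KO libraries of a stage overlapped. The log2 fold change was -0.90 in WT (SE 0.152, edgeR adjusted p = 0.000752) and -0.999 in KO (SE 0.152, adjusted p = 0.000282). Without the library labelled KO RS replicate 1 the KO value was -1.08 (adjusted p = 0.000982). With the marker covariates both calls were lost (-0.76, adjusted p = 0.582 in WT, and -0.87, adjusted p = 0.637 in KO).

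Kif14, which works with citron kinase in cytokinesis (chromosome 1, 136466343 to 136531511, plus strand), was at 7.82, 10.9 and 11.9 CPM in WT MII against 5.04, 4.96 and 7.11 in WT RS. In KO it was at 7.07, 9.12 and 10.8 CPM in MII and 3.99, 4.48 and 5.25 in RS. It fell in both genotypes with no overlap between stages, by 0.85 in WT (SE 0.230, adjusted p = 0.0163, edgeR) and by 0.98 in KO (SE 0.233, adjusted p = 0.00996) on the log2 scale. Leaving out the library labelled KO RS replicate 1 gave -0.89 in KO (adjusted p = 0.0516), and the KO call was also lost without KO MII replicate 3 (0.0543) or KO RS replicate 2 (0.0520). The WT call was lost without WT MII replicate 3 (0.0758), WT RS replicate 1 (0.102) or WT RS replicate 2 (0.0644). The covariate fit gave larger values that did not pass (-1.64, adjusted p = 0.375 in WT, and -1.74, adjusted p = 0.470 in KO).

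Kif15, which helps hold the spindle bipolar, was at 49.8, 37.9 and 34.8 CPM in WT MII and 27.5, 34.4 and 21.3 in WT RS. The stages nearly touched, at 34.4 and 34.8 CPM, and the call was at the threshold (-0.55, SE 0.187, edgeR adjusted p = 0.0478), lost on leaving out any of 10 of the 12 libraries (adjusted p between 0.0514 and 0.226) and with scaling by DESeq2's size factors (0.0541) or by the total count (0.0503). With the covariates its sign turned (0.085, adjusted p = 0.978). In KO it was at 37.9, 34.0 and 31.9 CPM in MII and 28.8, 30.1 and 23.8 in RS, also without overlap, and did not pass (-0.33, adjusted p = 0.273).

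Kif22 and Kif23 were called between stages in KO and not in WT. Kif22, the chromokinesin that pushes chromosome arms (chromosome 7, 127027729 to 127042471, minus strand), was at 24.7, 35.4 and 36.0 CPM in KO MII and 18.3, 21.9 and 21.3 in KO RS, but at 42.6, 48.6 and 35.7 in WT MII and 42.0, 36.4 and 48.8 in WT RS. Its WT stages overlapped (log2 fold change 0.01, edgeR adjusted p = 0.991), and in KO the change was -0.65 (SE 0.180, adjusted p = 0.0236). Kif23, the motor of centralspindlin and of germ cell bridges (chromosome 9, 61915905 to 61946774, minus strand), was at 77.0, 92.6 and 96.8 CPM in KO MII and 53.2, 58.5 and 71.0 in KO RS, a change of -0.54 (SE 0.167, adjusted p = 0.0386). In WT it was at 71.7, 80.5 and 60.3 CPM and at 58.1, 48.3 and 69.5, which overlap (-0.27, adjusted p = 0.296). Without the library labelled KO RS replicate 1 both KO calls were lost (Kif22 -0.57, adjusted p = 0.102, and Kif23 -0.46, adjusted p = 0.160). Leaving out replicate 2 or 3 of KO MII or of KO RS also ended the Kif22 call (0.0563 to 0.102). The Kif23 call ended likewise on leaving out WT RS replicate 1, WT MII replicate 1, replicate 2 or 3 of KO MII or KO RS replicate 2 (0.0522 to 0.158). With the covariates the KO values were -0.66 for Kif22 (adjusted p = 0.755) and -0.93 for Kif23 (adjusted p = 0.621). The stage effect was not shown to differ between genotypes for either gene, since the test of that difference gave adjusted p = 0.735 for Kif22 and 0.800 for Kif23 (0.907 and 0.933 without the library labelled KO RS replicate 1).

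The other 9 spindle members were not called between stages. Kif11, the plus-end motor that pushes spindle poles apart, was at -0.30 in WT and -0.61 in KO (adjusted p = 0.338 and 0.0553), and Kif18a, which steadies chromosomes at the metaphase plate, at -0.29 and -0.51 (0.285 and 0.0593). Kif20a, which brings the chromosomal passengers to the central spindle, pointed up in WT (0.69, adjusted p = 0.153) and down in KO (-0.59, adjusted p = 0.249), but its 3 WT MII libraries ran from 16.0 to 51.9 CPM. Of the 14 spindle members, 5 had positive values in WT and 1 in KO, with medians of -0.28 and -0.53 against -0.03 and -0.01 over all genes tested.

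Kif17 was the cilium and flagellum kinesin that rose. It was at 83.4, 97.5 and 81.6 CPM in WT MII and 152, 156 and 112 in WT RS, and at 118, 87.8 and 106 in KO MII and 164, 159 and 156 in KO RS. No RS library of a genotype reached down to the MII libraries of that genotype, and the WT RS library at 112 CPM was the lowest of the 6 RS libraries. The rise was 0.68 in WT (SE 0.152, edgeR adjusted p = 0.00517) and 0.62 in KO (SE 0.151, adjusted p = 0.0113). Without the library labelled KO RS replicate 1 the KO value was 0.60 (adjusted p = 0.0439), and the KO call was lost without KO MII replicate 2 (0.51, adjusted p = 0.0678). The covariates gave 1.04 in WT (adjusted p = 0.407) and 0.98 in KO (adjusted p = 0.564), so neither call held there. The other 9 members of the group, among them Kif3a (0.22 in WT, adjusted p = 0.250), Kif9 (0.20, adjusted p = 0.312) and Kif27 (0.33, adjusted p = 0.0927), were not called in either genotype. Kif19a, which shortens cilium tips in mice, had a larger value in WT (0.89, adjusted p = 0.225) but lay between 0.392 and 1.57 CPM in all WT libraries. The median of the 10 was 0.16 in WT and 0.05 in KO.

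Among cargo kinesins, Kifc3 and Kif1b rose in WT. Kifc3, a minus-end motor known from epithelial cell junctions (chromosome 8, 95099828 to 95202812, minus strand), was at 6.92, 9.88 and 5.91 CPM in WT MII and 16.1, 17.7 and 18.6 in WT RS, and its change was 1.21 on the log2 scale (SE 0.209, edgeR adjusted p = 0.000897), or 1.84 with the covariates (adjusted p = 0.298). In KO it was at 7.20, 5.56 and 8.07 CPM in MII and 9.93, 9.60 and 8.77 in RS, again without overlap, with 0.45 (adjusted p = 0.173). The strand setting of the counting is not stated by any source used here, and the Kifc3 values are uncertain for that reason. Kif1b, a carrier of mitochondria and synaptic vesicle precursors, was at 35.3, 32.2 and 27.1 CPM in WT MII and 48.4, 39.8 and 45.8 in WT RS (0.50, SE 0.159, adjusted p = 0.0349). Leaving out WT RS replicate 1 (0.136) or 3 (0.0631), WT MII replicate 3 (0.123) or KO RS replicate 2 (0.0506) ended that call, as did a fit with only the 6 WT libraries (0.124) and the covariates (0.25, adjusted p = 0.903). Of the 14 cargo members tested, 8 had positive values in WT and 9 in KO, with medians of 0.07 and 0.12.

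**Figure D2:**
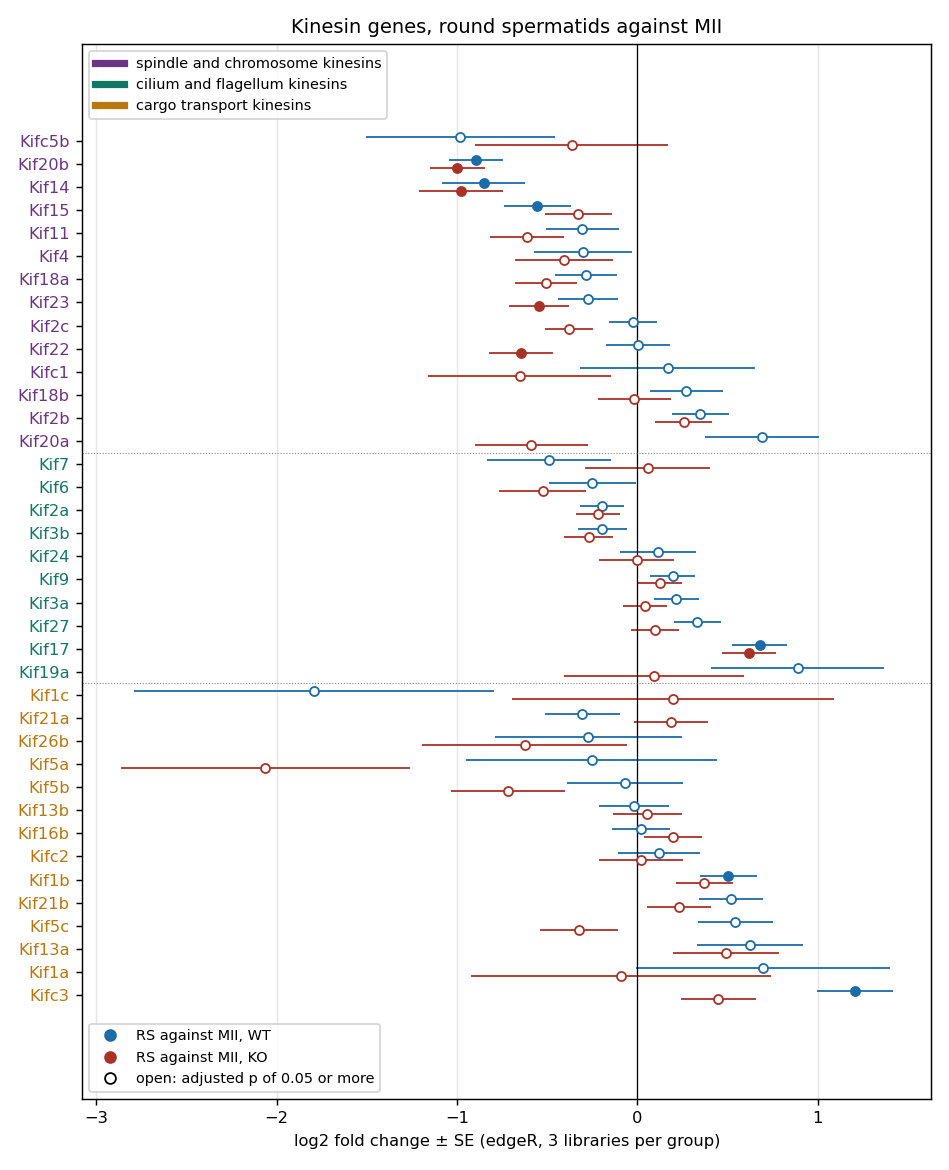
Log2 fold change from MII to round spermatids (horizontal axis) of the 38 tested kinesins, with bars of ± 1 SE from edgeR, in WT (blue) and KO (red), ordered by role; filled points have an adjusted p under 0.05. Kif20b and Kif14 lie left of 0 in both genotypes and Kif17 lies right of 0 in both, while Kifc3 has the highest WT value, at 1.21.

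Knockout was compared with wildtype within each stage to ask which kinesin transcripts differed in level between the genotypes. In MII, 1 kinesin was lower in KO (2.63% of the members tested, against 1.86% of all genes, and 3.68% in either direction) and 0 were higher (edgeR, against 1.83% of all genes; 6 members had an unadjusted p under 0.05, and DESeq2 called 2 members). In RS, 1 was higher (2.63%, against 6.06%) and 4 were lower (10.5%, against 7.39%). With the library labelled KO RS replicate 1 left out, 0 were called in MII, and 0 were higher and 4 lower in RS. Of all 21811 genes tested in that fit, 339 were higher and 355 lower in MII, and 366 higher and 714 lower in RS. The groups of 7 members did not overlap in MII (18.4%, against 22.2% of all genes) and those of 17 in RS (44.7%, against 36.1%), or of 21 in RS (55.3%, against 42.3%) without the library labelled KO RS replicate 1. The Sertoli marker sums given above were higher in every KO than in every WT library of a stage. Those of Leydig cells were too in MII, while in RS they overlapped.

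Kif5c, a conventional kinesin heavy chain best known from neurons, was lower in KO at both stages (chromosome 2, 49619298 to 49774778, plus strand). It was at 6.85, 7.43 and 5.85 CPM in WT MII and at 3.78, 3.36 and 4.51 in KO MII. In RS it was at 9.53, 11.0 and 8.76 CPM in WT and at 2.77, 3.04 and 3.47 in the libraries labelled KO RS. Every KO library lay below every WT library, and in WT the RS libraries lay above those of MII. The change was -0.79 in MII (SE 0.214, edgeR adjusted p = 0.0444) and -1.66 in RS (SE 0.215, adjusted p = 8.09e-05), a 3.16-fold lower level in RS. The RS call was kept without the library labelled KO RS replicate 1 (-1.58, adjusted p = 0.00133) and lost with Sertoli and Leydig marker scores as covariates (-1.42, adjusted p = 0.183). The MII call was lost without any of 10 of the 12 libraries, the one labelled KO RS replicate 1 among them (0.0576 to 0.178), and with the covariates (-0.59, adjusted p = 0.828).

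In round spermatids Kif22, shown above with its TTTGAA and CCAAT promoter motifs, had 42.0, 36.4 and 48.8 CPM in WT and 18.3, 21.9 and 21.3 in KO. The KO libraries were all below the WT libraries, by 1.05 on the log2 scale (-1.05, SE 0.180, edgeR adjusted p = 0.00136), and the call stayed without the library labelled KO RS replicate 1 (-0.97, adjusted p = 0.0114). With the marker covariates it was lost (-0.64, adjusted p = 0.581). In MII the KO and WT libraries of Kif22 came to -0.40 (adjusted p = 0.220), with 24.7 to 36.0 CPM in KO and 35.7 to 48.6 in WT.

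Kifc3 was at 16.1, 17.7 and 18.6 CPM in WT RS and 9.93, 9.60 and 8.77 in KO RS. The groups did not overlap and the change was -0.89 (SE 0.206, edgeR adjusted p = 0.00895), or -0.93 (adjusted p = 0.0344) without the library labelled KO RS replicate 1. With the covariates it was -1.06 (adjusted p = 0.363).

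Kif1a, which carries vesicles in axons, was close to the detection floor (chromosome 1, 93015464 to 93101951, minus strand). It had 45, 64 and 42 counts in the WT RS libraries, or 1.29, 1.98 and 1.57 CPM, and 26, 2 and 0 counts in the libraries labelled KO RS replicates 1, 2 and 3, or 0.836, 0.0716 and 0 CPM. The fitted change of -2.33 (SE 0.763, edgeR adjusted p = 0.0490) was at the threshold and was lost without any of 8 libraries, the lowest and highest of those p-values being 0.0516 and 0.169. Without the library labelled KO RS replicate 1 the call stayed (adjusted p = 0.00200), and the fitted size, -5.24, then rests on 2 counts and is no bound. In MII, where WT had 0.699, 0.801 and 1.42 CPM and KO 0.650, 0.210 and 0.173, the difference did not pass (-1.54, adjusted p = 0.285). With the marker covariates both stages passed (RS -7.39, adjusted p = 0.00724, and MII -5.32, adjusted p = 0.0461), on these same low counts.

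Kif21a, a motor that limits microtubule growth at the cell cortex and in axons, was the kinesin that was higher in KO round spermatids (chromosome 15, 90933276 to 91049948, minus strand). It was at 13.2, 17.1 and 11.4 CPM in WT RS and 27.9, 24.4 and 22.4 in KO RS, all KO libraries above all WT libraries. The change was 0.84 (SE 0.207, edgeR adjusted p = 0.0124). The library labelled KO RS replicate 1 was the highest, and without it the call was lost (0.75, adjusted p = 0.0695), as it was without WT RS replicate 1 (0.0648) or 3 (0.0727). The covariates gave 0.68 (adjusted p = 0.643).

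**Figure D3:**
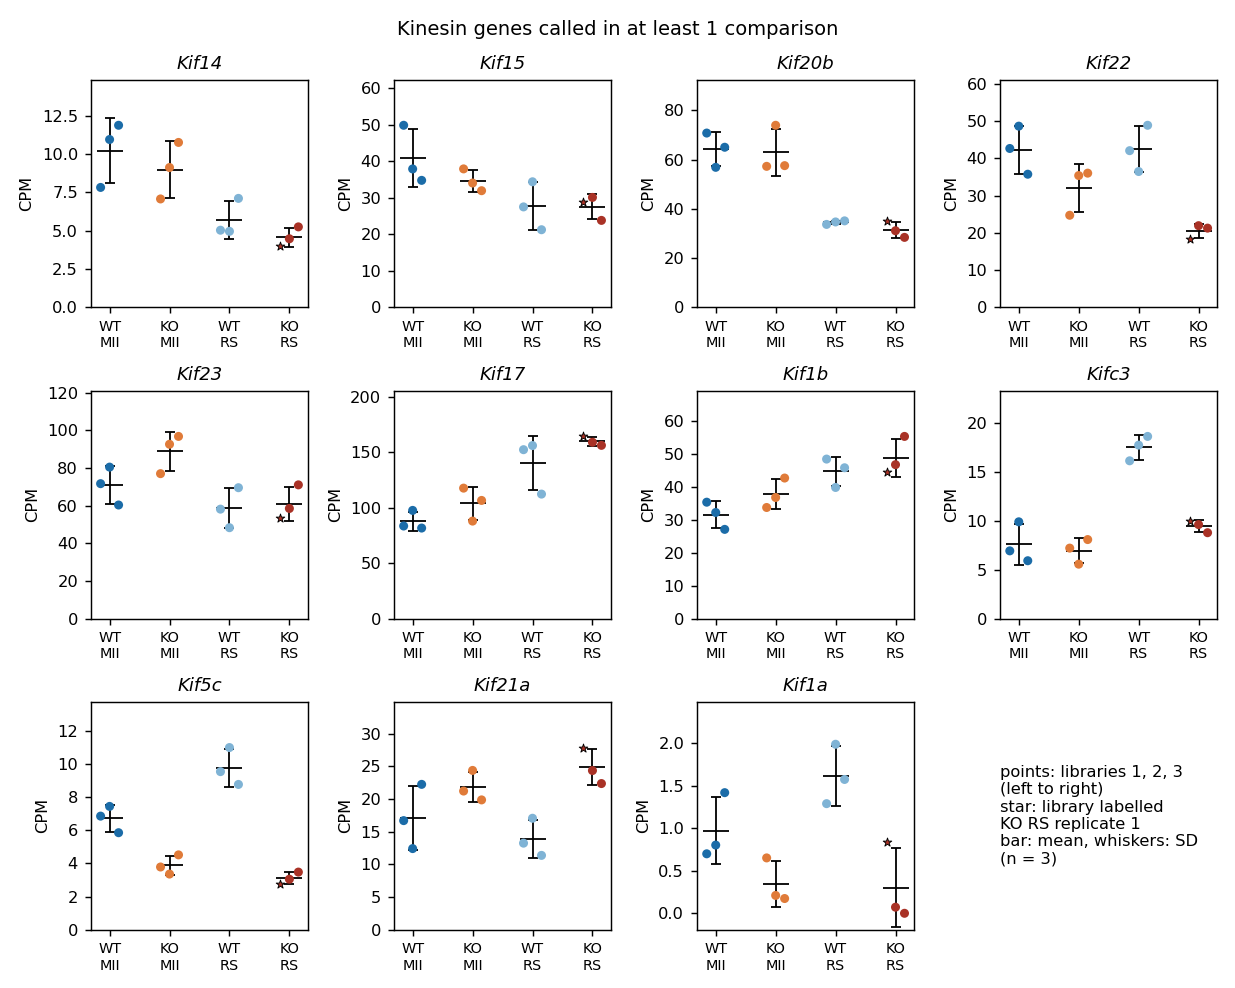
CPM in each library of the kinesins that were called in at least 1 comparison, 1 panel per gene with its own axis; points are libraries, the star is the library labelled KO RS replicate 1, and lines give the group mean ± SD (n = 3). Kif5c, Kif22 and Kifc3 show lower KO than WT points in RS, Kif20b and Kif14 lower RS than MII points in both genotypes, and Kif17 higher RS than MII points.

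The median of each role group was below 0 for KO against WT in both stages, and calls went both ways only among the cargo members. Of the spindle group, 1 of 14 was lower in RS (7.14%, against 7.39% of all genes) and 0 were higher, with a median of -0.15 and -0.03 in MII. Of the cilium and flagellum group, 0 of 10 were called by edgeR in either stage, with medians of -0.05 in RS and -0.02 in MII; DESeq2 called Kif3a in MII (0.41, adjusted p = 0.0158; edgeR 0.41, adjusted p = 0.0698). Of the 14 cargo members, 3 were lower (21.4%) and 1 higher in RS (7.14%, against 6.06% of all genes), with a median of -0.32, and 1 was lower in MII, with a median of -0.14. The RS medians without the library labelled KO RS replicate 1 were -0.22, -0.02 and -0.44 for spindle, cilium and cargo members. The median over all genes was -0.01 in both stages. Kif5a, a neuronal heavy chain, lies 1.04 Mb from Pan2 on chromosome 10 and was at -2.09 in RS (adjusted p = 0.0877), from 0.279 to 1.12 CPM in WT and 0.0847 to 0.193 CPM in KO.

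**Figure D4:**
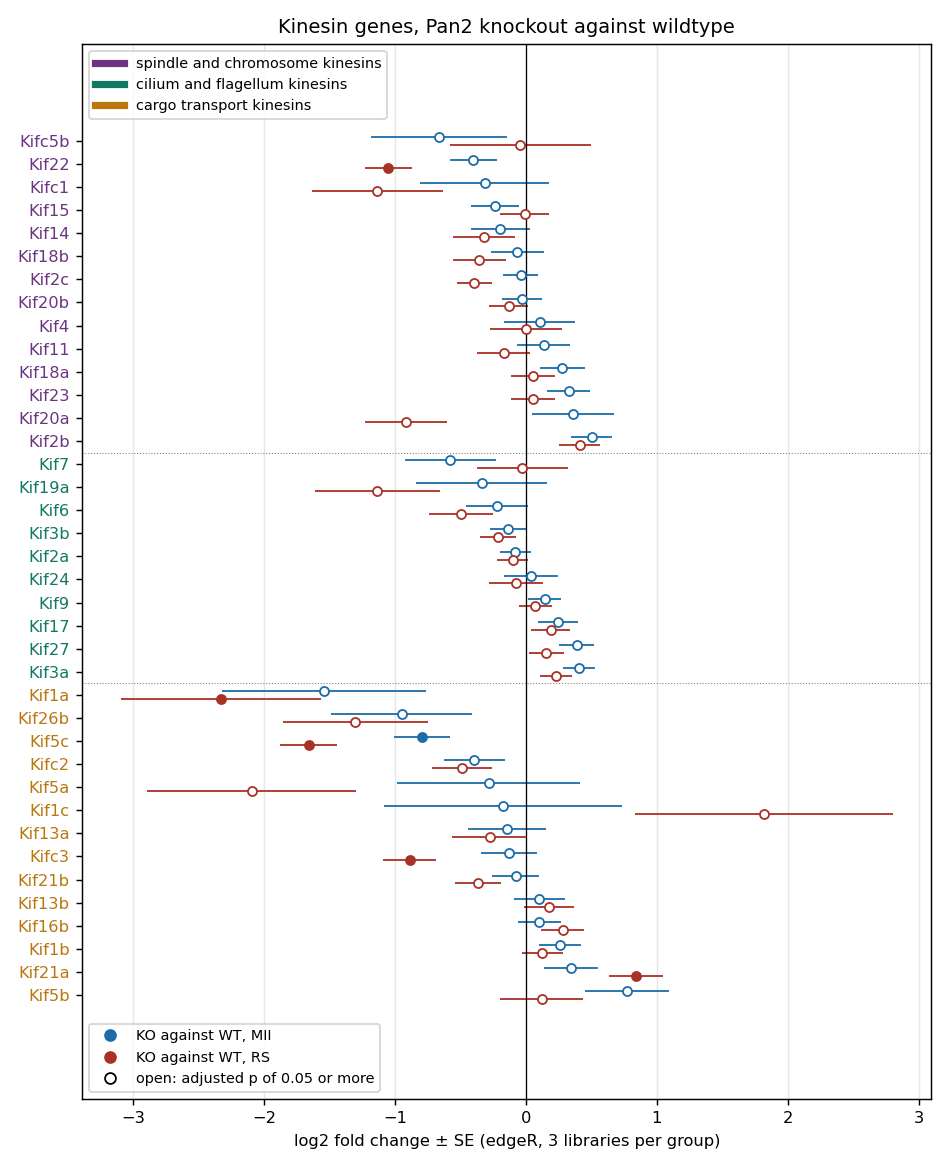
Log2 fold change of KO against WT (horizontal axis) of the 38 tested kinesins, with bars of ± 1 SE from edgeR, in MII and in RS, ordered by role; filled points have an adjusted p under 0.05. Kif5c is filled in both stages, and in RS the filled points of Kif22, Kifc3 and Kif1a lie left of 0 and that of Kif21a right of 0.

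The KO effect was not shown to differ between stages for any kinesin. By edgeR 0 of 38 members were called for the difference, against 0.0047% of all genes, 4 had an unadjusted p under 0.05 and DESeq2 called 0. The lowest p-values were those of Kif5c, whose KO effect was lower in RS than in MII by 0.87 (difference -0.87, SE 0.301, unadjusted p = 0.00931, adjusted p = 0.735), and of Kif20a (difference -1.28, SE 0.446, unadjusted p = 0.0113, adjusted p = 0.735). With the library labelled KO RS replicate 1 left out 0 were called as well, and the lowest p-values were those of Kif1a (-3.69, unadjusted p = 0.00337, adjusted p = 0.889), whose fitted size rests on 2 counts in KO RS, and Kif20a (-1.15, unadjusted p = 0.0174, adjusted p = 0.907), while Kif5c was at -0.79 (unadjusted p = 0.0289). In MII Kif20a was at 51.9, 42.1 and 16.0 CPM in WT and 39.7, 45.8 and 54.9 in KO, and in RS at 49.3, 48.9 and 78.2 CPM in WT and 25.6, 29.7 and 38.3 in KO. The WT MII library at 16.0 CPM stood lowest of all 12, and only the RS groups did not overlap. Of its exon bases, 29.3% lie in exons of Cdc23 on the other strand, which was itself at -0.50 in RS (adjusted p = 0.104).

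Some members may share reads with copies. Kif4, a chromokinesin, was at 3.07 to 3.80 CPM in WT MII, while the rows of its pseudogene symbol Kif4-ps held 14.9 to 19.0 CPM. Kif4-ps fell between stages in WT (-0.87, adjusted p = 0.0250) and in KO (-1.52, adjusted p = 0.000901) and was lower in KO RS (-0.92, adjusted p = 0.0260), where Kif4 was at 0.00 (adjusted p = 0.999). The KO stage call of Kif4-ps stayed on leaving out the library labelled KO RS replicate 1 (-1.39, adjusted p = 0.00719), and its RS call was lost (-0.78, adjusted p = 0.129). Kifc1, a minus-end motor of spindle poles and the acrosome, and its near copy Kifc5b had at most 1.95 and 1.33 CPM, and no source used here tells how their reads were divided.

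The partners of these motors were listed by function and counted in the same fits. The lists were chosen with earlier results of these data known, so their shares are descriptive and no test of an excess. The central spindle list holds the factors that work with Kif14, Kif20a, Kif20b and Kif23. Of its 14 genes, 5 fell from MII to RS in WT (35.7%, against 8.68% of all genes) and 9 in KO (64.3%, against 8.17%), 0 rose in either, and 6 were lower in KO than in WT in RS (42.9%, against 7.39%), with medians of -0.21, -0.59 and -0.58. Without the library labelled KO RS replicate 1, 4 fell between stages in KO, against 1321 of 21811 genes. In that fit 4 were lower in KO RS, against 714 genes. Cdca8, a chromosomal passenger protein, went from 103 ± 19.7 to 48.6 ± 12.3 CPM in WT (-1.09, edgeR adjusted p = 0.000631) and from 75.6 ± 9.15 to 23.0 ± 0.979 CPM in KO. Cep55, which recruits the abscission machinery and is held off by Tex14 at germ cell bridges, was at 17.1 ± 6.28 CPM in WT RS and 5.73 ± 0.245 CPM in KO RS (-1.57, adjusted p = 0.000239). Aurkb, the kinase of the passenger complex, was at 12.5 ± 3.35 and 5.24 ± 0.891 CPM in these groups (-1.25, adjusted p = 0.00189). The RS calls of Cep55 (-1.55, adjusted p = 0.00214) and Aurkb (-1.15, adjusted p = 0.0152) stayed on leaving out the library labelled KO RS replicate 1. With the covariates the values were -1.43 for Cdca8 in WT (adjusted p = 0.347), and -1.32 for Cep55 (0.251) and -0.88 for Aurkb (0.532) in RS.

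Of 19 spindle and kinetochore partners, 7 fell from MII to RS in WT (36.8%, against 8.68% of all genes) and 13 in KO (68.4%, against 8.17%), with 0 rising in either (medians -0.42 and -0.74). Ndc80, which ties kinetochores to microtubules, went from 57.9 ± 3.63 to 18.2 ± 3.14 CPM in WT (-1.67, edgeR adjusted p = 4.37e-06), and by the covariate fit at -2.03 (adjusted p = 0.221). In MII, 1 was higher in KO, Ckap5 (0.61, adjusted p = 0.0476), a call lost on leaving out any of 9 libraries. In RS, 6 were lower (31.6%, against 7.39% of all genes) and 1 higher in KO, among the lower ones Bub1b of the spindle checkpoint (-1.03, adjusted p = 0.00290) and Tpx2, a spindle assembly factor (-0.89, adjusted p = 0.00874). Without the library labelled KO RS replicate 1, 11 fell between stages in KO, against 1321 of 21811 genes. In that fit 2 were lower and 0 higher in KO RS, against 714 and 366 genes. It kept the call of Bub1b (-0.94, adjusted p = 0.0219) and of Tpx2 (-0.88, adjusted p = 0.0403). The Tpx2 call was lost without WT RS replicate 3 (0.0627). The covariate values were -0.59 (adjusted p = 0.672) and -0.65 (adjusted p = 0.665), and Ckap5 was at 0.37 (adjusted p = 0.864).

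Light chains and adaptors couple kinesins to their cargo. Of 19 such genes, 6 were lower (31.6%, against 7.39% of all genes) and 1 higher (5.26%, against 6.06%) in KO RS (median -0.44), and 1 was higher in KO MII (5.26%, against 1.83%). Leaving out the library labelled KO RS replicate 1 gave 2 lower and 1 higher in RS, against 714 and 366 of 21811 genes. Klc3, a kinesin light chain known in rodents from sperm tail mitochondria and outer dense fibres, was at 5.15, 8.50 and 5.61 CPM in WT RS and 0.354, 0.931 and 0.424 in KO RS (-3.48, SE 0.580, edgeR adjusted p = 0.00104), and the RS call was kept on leaving out any 1 library (0.00749 without the library labelled KO RS replicate 1). From MII to RS in WT it rose by 2.05 (adjusted p = 0.0130), and leaving out WT RS replicate 2 or WT MII replicate 3 ended that call. Kifap3, the non-motor subunit that joins Kif3a and Kif3b, was instead higher in KO, at 378, 291 and 329 CPM in WT MII against 512, 553 and 459 in KO MII (0.61, adjusted p = 0.0201), and at 417, 465 and 354 in WT RS against 658, 637 and 579 in KO RS (0.60, adjusted p = 0.00801). The MII call was lost without KO MII replicate 1 or 2 (up to 0.104), and the RS call without WT RS replicate 3 (0.0612) and not without the library labelled KO RS replicate 1 (0.0482). Its 2 motor subunits were not called in either stage: Kif3a was at 0.41 and 0.23 (adjusted p = 0.0698 and 0.224) and Kif3b at -0.14 and -0.21 (0.628 and 0.328).

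Intraflagellar transport proteins, the cargo trains of kinesin-2, had 4 of 25 higher in WT RS than in WT MII (against 7.74% of all genes) and 2 lower (against 8.68%), 2 lower in KO RS than in KO MII (against 8.17%), and 3 lower in KO than in WT in RS (against 7.39%). Ift88 rose from 65.7 ± 10.6 to 93.0 ± 5.15 CPM in WT (0.50, edgeR adjusted p = 0.0196, above 0.05 on leaving out WT RS replicate 1 or WT MII replicate 3), whereas Ift20 fell from 62.8 ± 16.4 to 34.3 ± 3.74 CPM (-0.88, adjusted p = 0.00292). The lower ones in KO RS were Ift46 (-0.69, adjusted p = 0.00999), Wdr19 (-0.74, adjusted p = 0.0124) and Ift172 (-0.37, adjusted p = 0.0422), and leaving out the library labelled KO RS replicate 1 ended all 3 calls (0.0709, 0.0867 and 0.147). Those of Ift46 and Wdr19 were also lost without WT RS replicate 3, and that of Ift172 without any of 7 other libraries. Of 16 tested genes of the manchette and of Kif17 cargo, 2 rose and 1 fell between stages in WT (against 7.74% and 8.68% of all genes). In KO 1 rose and 1 fell (against 4.16% and 8.17%), and 2 were lower in KO RS (against 7.39%). Without the library labelled KO RS replicate 1 the last 3 counts were 0, by edgeR, against 359, 1321 and 714 of 21811 genes. Cytoplasmic dynein, the opposing minus-end motor, had 3 of 20 genes higher (against 7.74% of all genes) and 0 lower between stages in WT, 1 lower in KO (Dctn5, -0.69, adjusted p = 0.0118; -0.70, adjusted p = 0.0424 without the library labelled KO RS replicate 1; lost without KO MII replicate 2 or KO RS replicate 2), and 0 of 20 called by edgeR between genotypes in either stage, with medians of -0.07 in MII and 0.01 in RS. With the marker covariates the light chain and transport calls named here were lost, at fitted values of -4.31 for Klc3 in RS (adjusted p = 0.101) and 3.83 in the WT stages (0.444), 0.53 and 0.52 for Kifap3 in MII and RS (0.733 and 0.581), 0.65 for Ift88 (0.601) and -1.54 for Ift20 (0.249). Those of Ift46, Wdr19, Ift172 and Dctn5 were -0.29, -0.30, -0.42 and -0.93 (adjusted p between 0.637 and 0.831). The values of Klc3, Ift88, Ift20, Ift172 and Dctn5 were at least as large as without the covariates.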

How the data were processed

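The authors deposited 1 table of raw counts per gene for 12 libraries, with the coordinates of each gene. The submitters' processing notes name DESeq2, featureCounts 2.0.2, Trim Galore 0.6.7 and STAR 2.7.10a, and the build mm10; for strand and for multiply placed reads the settings are not given in the sources. Of counts between 1 and 20, 81.4% were even.

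Counts were used as deposited. Genes passing edgeR's filterByExpr (minimum count 10, minimum total 15; 21291 of 37839 with a count) were tested with edgeR 4.0.16 (R 4.3.3), a quasi-likelihood F test with TMM scaling, 4 group means, 12 libraries and 8 residual degrees of freedom. Benjamini-Hochberg adjustment ran over all genes tested, and "called", "rose", "fell", "higher" or "lower" means an adjusted p under 0.05. The coefficient of variation between replicates was 22.28%. An exact permutation test of 3 against 3 libraries cannot go below p = 0.1. Libraries of a group correlated at 0.965 to 0.983 and their counts were further apart than sampling alone gives (chi-square over its degrees of freedom 8.60 to 81.9). The fit was checked on simulated counts.

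Members called in any comparison were given in full, the 2 with the lowest p where none was, other members within their role, and up to 3 genes per partner list. Members and lists were chosen with earlier results of these data known. Alternatives were other scalings and filters, DESeq2 1.42.0, limma-voom (limma 3.58.1), only the libraries compared, a replicate number block, marker covariates, a fold change of at least 2, and each library left out. Counts halved and rounded up were added after seeing the data.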

Additional observations from a re-analysis of the deposited data

How the results depend on the processing

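Counts of kinesins called moved by more than 1.5 times under some alternatives. Between stages in WT, 6 became 1 at a fold change of at least 2 and 0 with the marker covariates. In KO, 5 became 0 under both of these, 8 with a filter of 5 CPM in 3 libraries, 8 with DESeq2 and 9 with only the libraries compared. Over all genes 885 rose and 1740 fell in KO in the main fit. The covariates gave 0 and 1, and that filter 762 and 1550 of 11292 genes. DESeq2 gave 1292 and 2053, and only the libraries compared 2074 and 2377 of 19548 genes. For KO against WT in MII, 1 became 0 at a fold change of at least 2, with only the libraries compared and with the replicate block, and 2 with DESeq2. Over all genes 389 were higher and 395 lower in the main fit. Only the libraries compared gave 169 and 234 of 19446 genes, the block 383 and 361, and DESeq2 772 and 723. In RS, 5 became 3 at a fold change of at least 2 and 1, Kif1a, with the covariates. The covariate fit called 4 genes higher and 111 lower of all 21291 in RS, against 1290 and 1573 in the main fit. All-gene counts at a fold change of at least 2 are not given here. The difference between stages went from 0 to 1 without a filter (Kif20a, -1.27, edgeR adjusted p = 0.0341). Of all 37839 genes that fit called 39 higher and 26 lower. Leaving out each library gave 3 to 6 calls between stages in WT, 2 to 8 in KO, 0 to 2 for KO against WT in MII, 3 to 6 in RS and 0 for the difference. The KO stage count became 8 on leaving out WT MII replicate 3, and 2 on leaving out replicate 2 or 3 of KO MII or replicate 1 or 2 of those labelled KO RS. The WT stage count was 3 without WT RS replicate 1, and the RS count was 3 without WT RS replicate 1 or 3.

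Not every pair of same-numbered libraries deviated together (correlation -0.203 to 0.287), so the numbers were not taken to pair the samples. With the replicate block the MII call of Kif5c was lost (adjusted p = 0.0650), and the counts were 6 and 5 between stages in WT and KO, 5 in RS and 0 for the difference.

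Of 373 alternatives to the fold changes of called members, 294 kept the call, 78 lost it and 1 reversed: Kif15 between stages in WT was at 0.085 with the covariates. Without the covariate fits 293 of 356 kept it. The cause of the calls lost with the covariates was not tested. Halving the counts gave no count outside 1.5 times. Members at the floor, such as Kif1a, are limited by depth.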
